A study of Patiria miniata with 46 samples.

Results

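Engrailed, Pax2-5-8 and FGF8-17-18 are the bat star (Patiria miniata) counterparts of genes that mark the boundary between midbrain and hindbrain in vertebrate embryos. They were taken from the count file by symbol. They are 3 of the 23869 loci in the file and 3 of its 66 loci with a symbol, and each is represented by 1 transcript model. The study cut arms of young sea stars into frozen sections along 3 directions and sequenced polyadenylated RNA from each section. Specimen 1 gave 22 sections along the proximo-distal axis and 8 through the oral-aboral axis. Specimen 2 gave 16 sections across the left-right axis. No treatment or genotype is given for either specimen. Each section is a slab of whole arm, so one library holds every tissue that the blade crossed.

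In vertebrates, Pax2, Pax5 and Pax8 encode transcription factors with a paired domain, Engrailed encodes a homeodomain transcription factor, and FGF8, FGF17 and FGF18 are secreted ligands that act through FGF receptors. At the boundary of the vertebrate midbrain and hindbrain these genes are expressed together, between Otx in the midbrain and Gbx in the hindbrain, and FGF8 is the organising signal there. Echinoderms are deuterostomes with adult bodies of 5-fold symmetry, and the comparison here is where the 3 counterparts lie along the arm, across its width and through its thickness.

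Every position was sampled once. A change along an axis was therefore tested against the scatter of the sections around a fitted line or curve, within a single arm. The p-values say nothing of the spread between animals. They also take neighbouring sections as independent, which was not checked. Levels are counts per 1000000 (CPM) after composition scaling within an axis. They cannot be compared between genes, because transcript lengths were not used, nor closely between axes, which were scaled apart. In a slab of whole arm, fewer cells of a type and less RNA per cell cannot be told apart. Where groups of sections are said not to overlap, the share of all loci that also lack overlap was not counted. A lack of overlap is therefore a description and is not shown to be particular to these genes. The labels do not say which end, face or side is section 1.

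The library totals were 196002 to 680685 counts in the proximo-distal sections, 2573762 to 6921408 in the oral-aboral sections and 250704 to 1591759 in the left-right sections. In proximo-distal sections 12 to 22 one locus without a symbol took 12.2% to 50.3% of the counts. No pair of libraries agreed within sampling noise. Of the markers listed for other tissues, the file names 2 of 9 for endoderm (FoxA and Nkx2.2) and 2 of 8 for neural tissue (Lhx1-5 and Otp), and none for muscle, skeleton or coelom. The tissues in a section were thus checked against these 4 genes only.

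Pax2-5-8 changed along the arm, through its thickness and across its width. It fell towards section 22 on the proximo-distal axis and was lower in the inner than in the outer sections of the oral-aboral and left-right axes. FGF8-17-18 fell along the arm and was lower in the inner oral-aboral sections, and showed no midline difference that passed the test on the left-right axis. Engrailed passed none of the edgeR tests on any axis, and its 2 lowest values along the arm were in the last 2 sections.

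**Figure D1:**
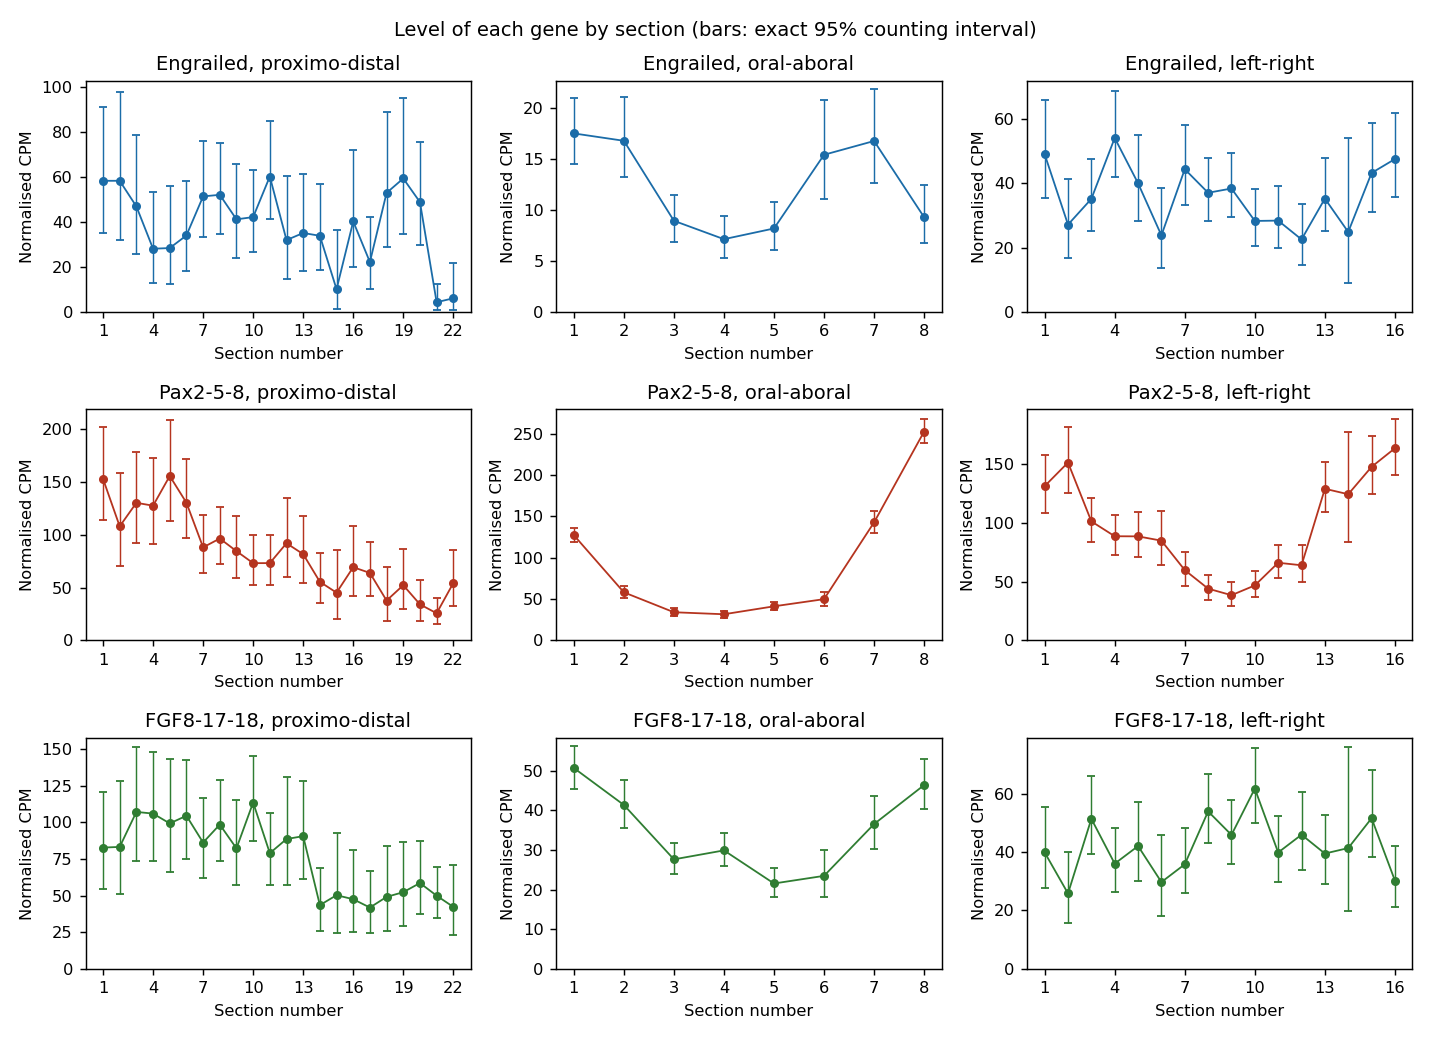
Composition-scaled CPM (vertical axis, from 0) of Pax2-5-8, FGF8-17-18 and Engrailed in each section (horizontal axis, section number) of the 3 series, with 95% exact binomial intervals that cover counting error only. Within its series, Pax2-5-8 is lowest in left-right section 9 (38.4 CPM) and highest in oral-aboral section 8 (253 CPM), and FGF8-17-18 has 90.5 CPM in proximo-distal section 13 and 43.4 CPM in section 14.

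Along the arm, Pax2-5-8 was detected in all 22 sections, from 25.7 CPM in section 21 to 156 CPM in section 5, with a median of 77.5 CPM and 665 counts in all. It had 34.1 CPM in section 20, 52.3 CPM in section 19 and 69.4 CPM in section 16, against 153 CPM in section 1 and 108 CPM in section 2. Its 7 last sections averaged 48.2 ± 16.1 CPM (SD, n = 7) and its 7 first sections 127.7 ± 23.8 CPM (SD, n = 7). The highest of the last 7 sections was section 16, at 69.4 CPM, and the lowest of the first 7 was section 7, at 88.2 CPM, so the groups did not overlap. The first sections held 2.65 times the level of the last. The share of all loci without overlap between these groups was not counted. Fitted as a straight line over all 22 sections, the log2 change across the axis was -2.02 (SE 0.24, 95% interval -2.52 to -1.53; edgeR quasi-likelihood test, adjusted p = 2.15e-07). On this axis 39.3% of the 11067 loci tested passed, 19.1% of all loci as lower, and Pax2-5-8 stood at rank 243 by p.

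Among the sections between these groups, Pax2-5-8 held 96.5 CPM in section 8, within the range of sections 1 to 7, and 45.2 CPM in section 15, within the range of sections 16 to 22. In the order of its levels no section differed from the next beyond the counting intervals, while the intervals of 11 sections lay wholly below that of section 5 and those of 15 wholly above that of section 21.

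FGF8-17-18, the ligand of the set, also fell along the arm. Sections 14 to 22 held 41.8 to 58.5 CPM, the highest in section 20 and the lowest in section 17. Sections 1 to 13 held 78.9 to 113 CPM, the highest in section 10 and the lowest in section 11. The 9 sections from 14 on averaged 48.3 ± 5.37 CPM (SD, n = 9) and the 13 before them 93.9 ± 11.4 CPM (SD, n = 13), which is 1.94 times more in the earlier sections. Pax2-5-8 did not overlap between these groups either, at 48.7 ± 14.2 CPM in sections 14 to 22 (SD, n = 9) and 107.3 ± 29.1 CPM in sections 1 to 13 (SD, n = 13). The division after section 13 was chosen after the values were seen, so these means carry no test, and whether either gene fell in a step or gradually was not tested. In the section groups used for all 3 genes, sections 16 to 22 averaged 48.7 ± 5.80 CPM and sections 1 to 7 averaged 95.5 ± 11.1 CPM (SD, n = 7 each), and they did not overlap. The fitted change over the axis was -1.31 on the log2 scale (SE 0.25, interval -1.81 to -0.80; edgeR, adjusted p = 0.000128, rank 1063). A curve with 3 degrees of freedom also passed for FGF8-17-18 (adjusted p = 3.25e-05) and for Pax2-5-8 (adjusted p = 2.09e-07), as it did for 53.4% of the loci.

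Engrailed had a median of 40.6 CPM along the arm and 315 counts in all. Sections 21 and 22 held 4.28 and 6.03 CPM, from 3 and 2 counts. Sections 1 to 20 held 10.0 to 60.1 CPM, with the lowest in section 15 and the highest in section 11. The values of sections 21 and 22 lay below all the others, at a mean of 5.15 CPM against 41.7 ± 13.8 CPM in sections 1 to 20 (SD, n = 20). These sections were set apart after the values were seen, so their lack of overlap follows from the choice. The counting intervals of 17 sections lay wholly above that of section 21. The interval of section 22 was wider, at 0.731 to 21.8 CPM, and overlapped others, such as that of section 15 (1.22 to 36.3 CPM). The fitted change over the axis, -0.98 on the log2 scale (SE 0.51, interval -2.02 to 0.06), missed the threshold (edgeR, adjusted p = 0.127), and so did the curve (adjusted p = 0.119). Without sections 21 and 22, an alternative chosen after seeing the data, the change was -0.22 (adjusted p = 0.707). Sections 16 to 20 held 22.1 to 59.2 CPM, which overlaps the 28.0 to 58.2 CPM of sections 1 to 7. Between these stretches Engrailed averaged 27.7 ± 11.8 CPM in sections 12 to 15 and 48.8 ± 8.99 CPM in sections 8 to 11 (SD, n = 4 each), with no overlap. These groups were also chosen after the values were seen and carry no test.

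The endodermal markers were higher in the sections where Pax2-5-8 and FGF8-17-18 were lower. Their summed level was 250.9 to 2299 CPM in sections 16 to 22 and 7.08 to 37.4 CPM in sections 1 to 7. FoxA, a transcription factor of the gut in many animals, reached 728 and 1566 CPM in sections 21 and 22, where Engrailed was lowest. The summed neural markers were lower in the same sections as Pax2-5-8 and FGF8-17-18, at 22.6 to 98.6 CPM in sections 16 to 22 and 100.5 to 239 CPM in sections 1 to 7. This sum was mostly Lhx1-5, which averaged 159.5 CPM in sections 1 to 7, against 9.45 CPM for Otp. Otp did not pass the low-count filter on this axis. The part of tissue makeup in the proximo-distal changes was not tested.

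Through the thickness of the arm, Pax2-5-8 differed between inner and outer sections. The 8 oral-aboral sections, in order, held 127, 58.1, 34.0, 31.6, 41.2, 49.8, 143 and 253 CPM, from 3651 counts. Sections 1, 7 and 8 were high and sections 3 to 6 low, with the highest value in section 8 and the lowest in section 4. Section 2 lay between, and its counting interval (51.2 to 65.6 CPM) overlapped that of section 6 (41.8 to 58.9 CPM). Sections 3 to 6 averaged 39.1 ± 8.22 CPM and sections 1, 2, 7 and 8 averaged 145.2 ± 80.6 CPM (SD, n = 4 each), 3.71 times more in the outer sections with no overlap. Fitted as position and its square, the middle differed from the ends by -2.47 on the log2 scale (SE 0.21, interval -2.94 to -2.01; edgeR, adjusted p = 6.58e-05). By this measure 50.3% of the 20395 loci tested passed, 23.3% as lower inside, and Pax2-5-8 stood at rank 148. How many of them also lacked overlap between the inner and outer sections was not counted.

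The faces were not equal for Pax2-5-8. Sections 7 and 8 averaged 197.7 ± 77.7 CPM and sections 1 and 2 averaged 92.7 ± 48.9 CPM (SD, n = 2 each), and the groups did not overlap. The slope from section 1 to section 8 in the same model was 1.31 on the log2 scale (SE 0.24, interval 0.77 to 1.85; edgeR, adjusted p = 0.00991), a call shared by 8.42% of the loci and, as higher, by 5.68%. Without section 1 the slope was 1.54 and its adjusted p was 0.0780. The interval of section 8 lay above those of all 7 other sections, while the intervals of sections 7 and 1 overlapped. The fitted minimum of Pax2-5-8 lay at section 4.04 (3.95 to 4.11 when each section was left out in turn), with the middle of the axis at 4.5.

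FGF8-17-18 had the same general form with less contrast. Its sections held, in order, 50.7, 41.3, 27.6, 29.9, 21.5, 23.5, 36.5 and 46.4 CPM, from 1477 counts. Sections 3 to 6 averaged 25.6 ± 3.81 CPM and the 4 outer sections 43.7 ± 6.13 CPM (SD, n = 4 each), 1.71 times more in the outer sections, and every inner value was below every outer one. The middle differed from the ends by -1.02 on the log2 scale (SE 0.19, interval -1.44 to -0.59; edgeR, adjusted p = 0.00174, rank 4225). Unlike the slope of Pax2-5-8, that of FGF8-17-18 did not pass (-0.24, interval -0.73 to 0.25, adjusted p = 0.566), with sections 7 and 8 at a mean of 41.4 CPM and sections 1 and 2 at 46.0 CPM. The slopes of the 2 genes were not tested against each other.

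Engrailed held 17.5, 16.8, 8.92, 7.12, 8.17, 15.4, 16.7 and 9.27 CPM in the 8 oral-aboral sections, from 500 counts. Sections 1, 2, 6 and 7 were high and sections 3, 4, 5 and 8 low. Sections 3 to 6 averaged 9.90 ± 3.73 CPM and the outer sections 15.1 ± 3.88 CPM (SD, n = 4 each), with overlap. The middle against the ends gave -0.69 on the log2 scale (SE 0.42, interval -1.62 to 0.25; edgeR, adjusted p = 0.198) and the slope -0.30 (interval -1.33 to 0.74, adjusted p = 0.755). Without section 8 the middle against the ends gave -1.63 for Engrailed, with an adjusted p of 0.0147. A curve with 3 degrees of freedom passed for Pax2-5-8 (adjusted p = 0.000434) and FGF8-17-18 (adjusted p = 0.0104) and not for Engrailed (adjusted p = 0.142), against 43.2% of the loci.

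On this axis too the endodermal markers were high where Pax2-5-8 and FGF8-17-18 were low, at a summed 608 to 760 CPM in sections 3 to 6 and 15.0 to 225.9 CPM in the outer sections. Engrailed departed from this in section 6, where it was high, and in section 8, where it was low and the endodermal sum was lowest. The neural markers summed to 35.5 to 44.6 CPM in sections 3 to 6 and 67.7 to 169.5 CPM in the outer sections. Lhx1-5 gave 3125 of their counts and Otp 156. Whether these markers account for any of the inner to outer difference was not tested.

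Across the width of the arm, in specimen 2, Pax2-5-8 traced a trough. From one side to the centre it held 131, 151, 101, 88.5, 88.4, 84.8, 59.7 and 44.0 CPM in sections 1 to 8. From the centre to the other side it held 38.4, 46.7, 66.0, 63.8, 129, 124, 148 and 163 CPM in sections 9 to 16. The descent to section 9 ran over 8 sections, whereas on the far side section 12 held 63.8 CPM and section 13 129 CPM. Sections 6 to 11 averaged 56.6 ± 17.2 CPM (SD, n = 6) and the 10 outer sections 118.8 ± 32.2 CPM (SD, n = 10), so that the centre held 0.476 times the outer level. These groups overlapped, because section 6 held 84.8 CPM and section 12 63.8 CPM. The 4 central sections, 7 to 10, averaged 47.2 ± 9.06 CPM (SD, n = 4) and none of them reached the lowest outer section. They are the 4 lowest sections of the axis, so this lack of overlap follows from their choice. The middle differed from the edges by -1.69 on the log2 scale (SE 0.26, interval -2.23 to -1.14; edgeR, adjusted p = 0.000164). On the left-right axis 21.8% of the 16523 loci tested passed for the midline, 8.96% as lower there, and Pax2-5-8 stood at rank 264.

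The trough of Pax2-5-8 was centred near the middle of the axis. Its fitted minimum lay at section 8.35 (8.23 to 8.60 when each section was left out in turn), beside the middle of the axis at 8.5. Sections 12 to 16 averaged 125.6 CPM and sections 1 to 5 averaged 112.1 CPM, and the slope from side to side was 0.14 on the log2 scale (SE 0.28, adjusted p = 0.889), a test that 1.07% of the loci passed, 0.92% as higher and 0.151% as lower towards section 16. Across the 8 mirrored pairs the log2 ratio of the later section to the earlier one ran from -0.47, for sections 12 and 5, to 0.54, for sections 13 and 4.

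**Figure D2:**
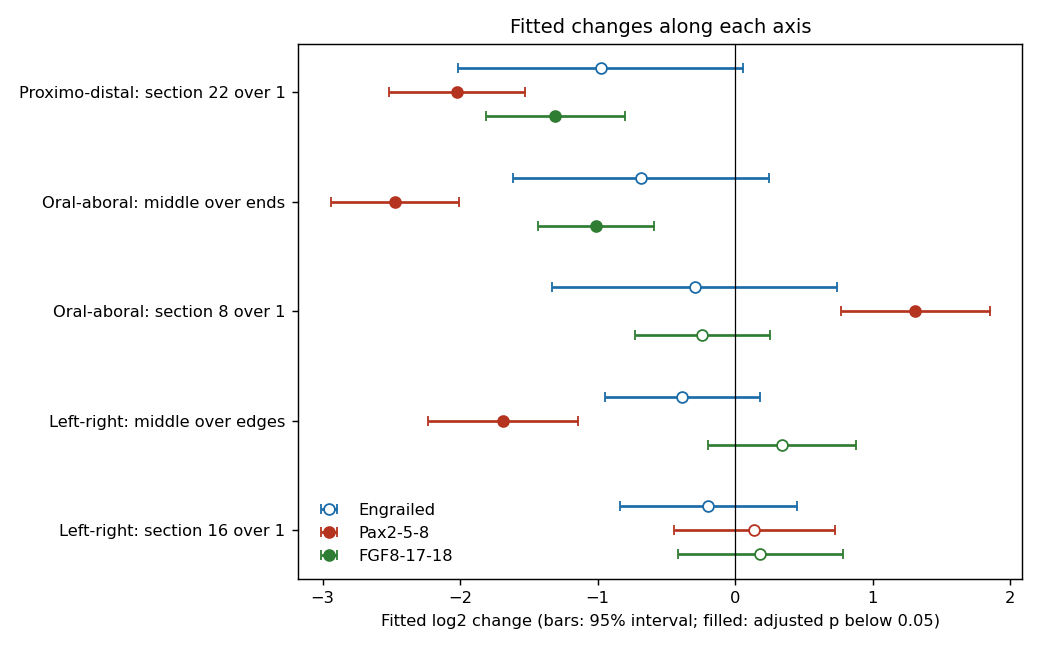
Fitted log2 changes (horizontal axis) with 95% intervals for the 3 genes in the trend along the arm, the inner against outer and slope terms of the oral-aboral axis, and the midline and slope terms of the left-right axis, with filled points where the adjusted p passed the threshold of 0.05. The intervals of Pax2-5-8 exclude 0 in the trend (-2.02), in the oral-aboral inner term (-2.47) and slope (1.31) and at the midline (-1.69), and those of Engrailed include 0 throughout.

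FGF8-17-18 showed no such trough. Its left-right sections held 25.8 CPM at the lowest (section 2), 40.7 CPM at the median and 61.8 CPM at the highest (section 10), from 755 counts. Sections 6 to 11 averaged 44.5 ± 11.9 CPM (SD, n = 6) and the outer sections 40.4 ± 8.29 CPM (SD, n = 10). The midline term was 0.34 on the log2 scale (SE 0.26, interval -0.20 to 0.87; edgeR, adjusted p = 0.365) and the slope 0.18 (adjusted p = 0.849). The interval allows a gene that is up to 0.87 log2 units higher or 0.20 lower at the midline, and does not reach the lowering measured for Pax2-5-8.

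Engrailed held 22.5 CPM at the lowest (section 12), 36.1 CPM at the median and 54.1 CPM at the highest (section 4) across the width, from 644 counts. Sections 6 to 11 averaged 33.4 ± 7.77 CPM (SD, n = 6) and the outer sections 37.9 ± 10.8 CPM (SD, n = 10). Its midline term was -0.38 (SE 0.27, interval -0.95 to 0.18; edgeR, adjusted p = 0.325) and its slope -0.20 (adjusted p = 0.849). Neither Engrailed (adjusted p = 0.304) nor FGF8-17-18 (adjusted p = 0.523) passed the left-right curve, which Pax2-5-8 passed (adjusted p = 0.000200) with 25.6% of the loci. The endodermal markers summed to 44.6 to 175.0 CPM in sections 6 to 11 and 1.14 to 44.2 CPM in the outer sections, and the neural markers to 69.8 to 110.0 CPM and 95.1 to 150.4 CPM in the same groups. Of the neural counts on this axis, Lhx1-5 gave 1557 and Otp 189. The part of the endodermal and neural markers in the trough of Pax2-5-8 was not tested.

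Of the 10540 loci tested on all 3 axes, 379 (3.6%) shared the 3 directions of Pax2-5-8, falling along the arm and lower at the middle of both other axes. The pair of calls of FGF8-17-18, falling along the arm and lower inside on the oral-aboral axis, was shared by 1227 loci (11.6%).

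The ratio of 2 genes in one library does not depend on how libraries are scaled. Pax2-5-8 was lower relative to FGF8-17-18 in left-right sections 6 to 11 than in the outer sections by 1.19 log2 units, given as a difference of -1.19, with mean log2 ratios of 0.33 at the centre and 1.52 outside. Relative to Engrailed its difference was -0.90, with mean log2 ratios of 0.73 at the centre and 1.63 outside. Both had an adjusted p of 0.0596 over the 9 ratio comparisons (exact permutation test, two-sided, raw p = 0.00674 and 0.0132), which misses the threshold. The permutation treats sections as exchangeable, although they are neighbouring slices of the same arm. With sections 7 to 10 as the centre the differences were -1.50 and -1.26, each with an adjusted p of 0.0148 (exact permutation test). These are the 4 sections where Pax2-5-8 was lowest on this axis, so these p-values do not count as a test of its ratios. On the oral-aboral axis Pax2-5-8 differed by -0.96 relative to FGF8-17-18 and by -1.10 relative to Engrailed (exact permutation test, adjusted p = 0.206 each), where 4 sections against 4 cannot give a raw p under 0.0286. Along the arm its differences were -0.48 and -0.64 (exact permutation test, adjusted p = 0.206 and 0.382). For FGF8-17-18 over Engrailed the differences were -0.16, -0.15 and 0.29 on the proximo-distal, oral-aboral and left-right axes (exact permutation test, adjusted p = 0.8, 0.8 and 0.382).

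The mean distance of a gene's RNA from the middle of an axis, weighted by CPM, places the 3 genes among the other loci with a symbol and at least 50 counts. A gene spread evenly would lie at 4 sections on the left-right axis and 2 on the oral-aboral axis. Pax2-5-8 lay at 4.90 sections (interval 4.79 to 5.00), rank 52 of 54 from the centre outwards, and at 2.70 sections (2.67 to 2.74) on the oral-aboral axis, the farthest out of 62. The oral-aboral intervals of Otp (2.53 to 2.85) and Hox11-13d (2.61 to 2.71) overlapped that of Pax2-5-8. Engrailed lay at 4.16 (3.98 to 4.35) and 2.22 sections (2.13 to 2.30). FGF8-17-18 lay at 3.81 (3.64 to 3.98) and 2.30 sections (2.24 to 2.35). Pax2-5-8 thus stood apart from both other genes on both axes, by intervals that cover counting error only, while those of Engrailed and FGF8-17-18 overlapped on both. With each section left out in turn, Pax2-5-8 ran from 4.58 to 5.04 on the left-right axis. Engrailed ran from 3.85 to 4.42 and FGF8-17-18 from 3.58 to 4.10. On the oral-aboral axis the range of Pax2-5-8, 2.29 to 2.835, overlapped those of Engrailed (1.95 to 2.37) and FGF8-17-18 (2.03 to 2.51). Along the arm the mean section was 8.96 for Pax2-5-8, 9.87 for FGF8-17-18 and 10.4 for Engrailed, where an even spread gives 11.5.

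**Figure D3:**
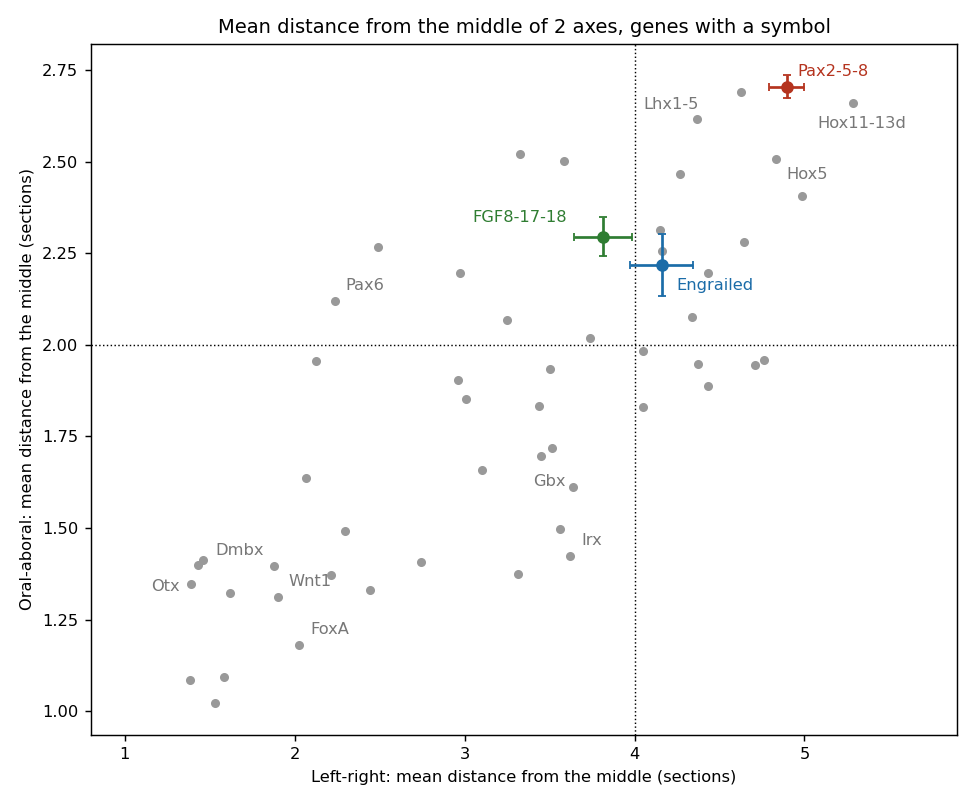
Mean distance from the middle of the left-right axis (horizontal, in sections) and of the oral-aboral axis (vertical, in sections) for loci with a symbol, with 95% counting intervals for the 3 genes and dotted lines where an even spread would lie. Pax2-5-8 lies at the outer corner (4.90 and 2.70), far from Otx (1.39 and 1.35). Engrailed (4.16 and 2.22) and FGF8-17-18 (3.81 and 2.30) lie nearer the dotted lines, with oral-aboral intervals wholly above the even value of 2.

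The genes that flank or share the vertebrate boundary were described from a list of 13 names, of which 7 are in the file: Otx, Gbx, Wnt1, Irx, Dmbx, Lhx1-5 and Pax6. At the left-right midline 4 of the 7 were higher (Otx, Dmbx, Pax6 and Wnt1), 1 was lower (Lhx1-5) and 2 did not pass (Gbx and Irx), with a median log2 difference of 5.63 against 0.12 over all loci, of which 12.9% passed as higher at the midline. Otx, a homeobox gene of the vertebrate forebrain and midbrain, had 93.1 CPM at its peak in section 9 and no counts in sections 1 to 6 and 14 to 16. Dmbx, a homeobox gene of the vertebrate midbrain, peaked in the same section at 89.3 CPM. The left-right slope term also passed, with a positive sign, for Otx, Dmbx and Pax6, and for none of the 3 members. Otx and Dmbx had no counts in sections 14 to 16, so their slopes do not mean a rise up to that edge. Their RNA lay off the middle, at a mean section of 9.49 for Otx and 9.65 for Dmbx. Pax6 lay at 10.2, where an even spread gives 8.5. Section 9 is the one where Pax2-5-8 was lowest, at 38.4 CPM, and Engrailed also held 38.4 CPM there, near its median. Wnt1, a secreted ligand of the vertebrate boundary, averaged 31.6 ± 14.4 CPM in sections 6 to 11 and 3.91 ± 2.92 CPM outside (SD, n = 6 and 10).

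Gbx, the homeobox gene on the hindbrain side of the vertebrate boundary, averaged 14.3 ± 7.02 CPM in sections 6 to 11 and 8.00 ± 4.16 CPM in the outer sections (SD, n = 6 and 10), a log2 difference of 0.78 that did not pass (edgeR, adjusted p = 0.321). Lhx1-5, a LIM homeobox gene that is also 1 of the 2 neural markers used above, went with Pax2-5-8. It fell along the arm by 2.06 on the log2 scale (edgeR, adjusted p = 1.28e-06), was lower inside on the oral-aboral axis by a difference of -2.17 (adjusted p = 8.08e-05) and lower at the midline by a difference of -0.64 (adjusted p = 0.0383). Its left-right levels were 75.2 ± 13.4 CPM in sections 6 to 11 and 103.1 ± 18.8 CPM outside (SD, n = 6 and 10).

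On the oral-aboral axis 5 of the 7 partners were higher inside (Dmbx, Irx, Otx, Pax6 and Wnt1), Lhx1-5 was lower and Gbx did not pass (difference 1.04, adjusted p = 0.0661), with a median of 2.29 against 0.07 over all loci, of which 27% passed as higher inside. The slope was lower towards section 8 for Dmbx, Otx and Pax6, as it was for 2.74% of the loci. Otx had no counts in sections 6 to 8 and Dmbx none in sections 7 and 8, where Pax2-5-8 held 143 and 253 CPM. Along the arm 5 of the 7 had enough counts to be tested. Irx (1.87) and Wnt1 (3.34) rose, Lhx1-5 (-2.06) and Pax6 (-2.93) fell, and Otx did not pass (-0.86, edgeR, adjusted p = 0.344), with a median of -0.86 against 0.01 over all loci, of which 20.3% passed as rising. None of the 11 listed names of the FGF pathway downstream of FGF8-17-18, such as FGF receptors, Sprouty and Dusp6, is in the file as a symbol, so the response to the ligand was not analysed here.

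**Figure D4:**
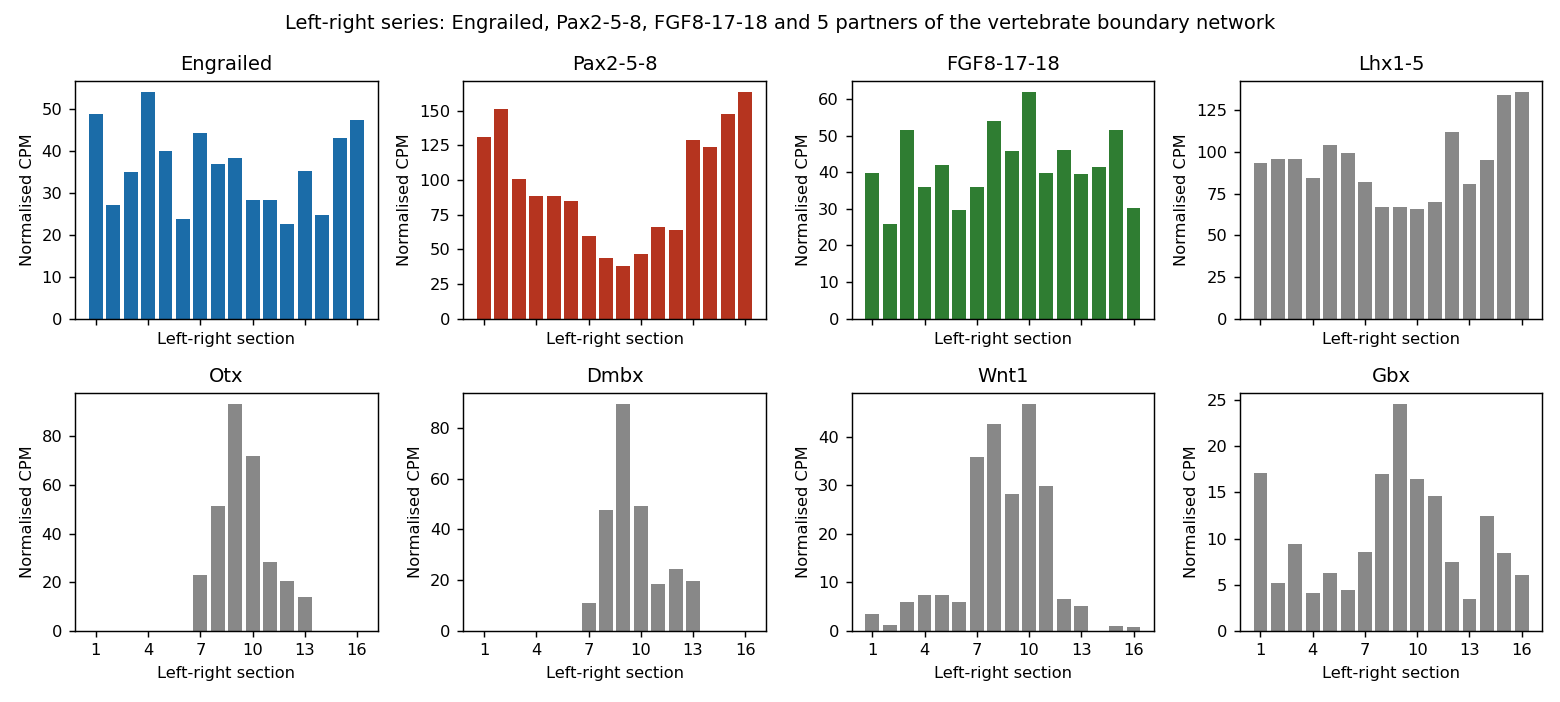
Composition-scaled CPM by left-right section (bars, 1 per library, vertical axes from 0, horizontal axis section number) for Engrailed, Pax2-5-8, FGF8-17-18, Lhx1-5, Otx, Dmbx, Wnt1 and Gbx. Otx and Dmbx peak in section 9, where Pax2-5-8 is lowest at 38.4 CPM, and Lhx1-5 is lower at the centre as Pax2-5-8 is.

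Likeness of pattern was measured as the mean over the 3 axes of Spearman's rho between sections (22, 8 and 16 sections), among the 44 other loci with a symbol that had enough counts on every axis. These values are descriptions, since all genes of a section share its library and depth. Hox5 was most like Pax2-5-8, at a mean rho of 0.777 (0.579 proximo-distal, 0.857 oral-aboral and 0.894 left-right). Lhx1-5 followed at 0.758 and Hox11-13d at 0.701, and Hox11-13d had 0.956 on the left-right axis and 0.241 along the arm. Hox genes encode homeodomain factors that pattern body axes in many animals. Hox5 and Hox11-13d were themselves lower at the midline, with log2 differences of -1.57 and -2.58 (edgeR, adjusted p = 0.0048 and 3.4e-05). They were picked for likeness to Pax2-5-8 over these same sections, so a lower midline follows from the choice and these p-values add no support. Of the 9 tested Hox genes, 4 were lower there, 3 were higher and 2 did not pass, and 8.96% of all loci tested were lower.

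No locus came as close to the other genes. Wnt3 was most like FGF8-17-18, at a mean rho of 0.49, then Lhx1-5 at 0.443 and Wnt10 at 0.423. Wnt9 was most like Engrailed, at 0.446, then Msx at 0.368 and Lhx1-5 at 0.35. None of the 3 genes was the nearest locus of another, where the nearest is by definition the highest of 44 values. Pax2-5-8 ranked 5 of 44 for Engrailed and 4 for FGF8-17-18. For Pax2-5-8, Engrailed ranked 7 and FGF8-17-18 ranked 12. Engrailed and FGF8-17-18 each ranked 11 for the other. Engrailed and Pax2-5-8 had a mean rho of 0.348, FGF8-17-18 and Pax2-5-8 0.32 and Engrailed and FGF8-17-18 0.245. The rho of FGF8-17-18 with Pax2-5-8 was positive along the arm (0.723) and through its thickness (0.667) and negative across its width (-0.429). Across the width FGF8-17-18 itself passed none of the edgeR tests, so the negative rho does not show opposite patterns.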

How the data were processed

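The authors deposited whole-number read counts per transcript model for 46 libraries, each a section of an arm. Per the labels' protocols the kit was for Iso-Seq full-length libraries; the aligner, counter, genome build and kind of read counted were not given in the sources used here. The 25794 models were summed into 23869 loci. Each axis was fitted alone with edgeR 4.0.16 in R 4.3.3 (quasi-likelihood test, minimum count 5 and minimum total 15, TMM scaling, Benjamini-Hochberg adjustment over all loci tested, threshold 0.05). The terms were linear position along the arm, position and its square on the other axes, and a spline with 3 degrees of freedom. The linear terms run from section 1 to the last section, and the square term is given as middle minus ends. All 3 genes passed the low-count filter on every axis. Ratios of 2 genes used counts plus 0.5 and an exact permutation test over sections (SciPy 1.17.1), adjusted over 9 comparisons.

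The members, lists and section groups were chosen with earlier results of these data known. The genes named are the 3 members, the listed boundary, FGF, forebrain, Hox and tissue-marker genes, and the 3 loci most like each member. Alternatives were other scalings, filters, tools (limma 3.58.1, DESeq2 1.42.0), covariates and section groups, models not summed, the dominant locus removed, and each section or both ends left out. Tested on simulated counts, the edgeR script recovered 99.0% of log2 changes of 3 and 35.5% of changes of 1 along the arm, 95.0% and 29.6% for the oral-aboral inner term, and 96.9% and 18.9% for the left-right midline. Counting intervals are 95% exact binomial intervals (delta method for mean distances) and cover counting error only. They treat each count as an independent draw, although the kind of read counted was not given.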

Additional observations from a re-analysis of the deposited data

How the results depend on the processing

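The fall of Pax2-5-8 along the arm kept its call in all 12 alternatives (-2.76 to -1.42) and without each section (-2.19 to -1.87), its oral-aboral inner term in all 11 (-2.99 to -1.90; -2.90 to -2.39 without each section) and its midline term in all 11 (-2.13 to -1.08; -1.92 to -1.56). FGF8-17-18 kept its trend (-1.99 to -0.96; -1.45 to -1.24) and its oral-aboral inner term (-1.45 to -0.76; -1.28 to -0.92). The calls of Engrailed depended on the setting, and the cause was not tested. Its trend passed with total-count scaling (-1.77, adjusted p = 0.00858), which moves the median of all loci to -0.66, and with limma-trend (-1.22, adjusted p = 0.0347); its curve along the arm had adjusted p = 0.00842 and 0.0373 under these, and 0.0202 to 0.625 without each section. Its oral-aboral inner term passed with log2 total count as covariate (-0.80, adjusted p = 0.0146) and without both end sections (-2.39, adjusted p = 0.0136), and ran from -1.63 to -0.43 without each section; its curve had adjusted p = 0.0225 and 0.0398, and 0.0168 to 0.344. Its oral-aboral slope was 0.48 without both ends and -0.67 to 0.79 without each section.

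The oral-aboral slope of Pax2-5-8 ran from 1.09 to 1.79 without each section. The oral-aboral curve of FGF8-17-18 had adjusted p = 0.134 without both ends and 0.0105 to 0.0567 without each section, missing the threshold without section 5. The left-right slopes, which passed nowhere, ran without each section from -0.093 to 0.25 (Pax2-5-8), -0.0068 to 0.37 (FGF8-17-18) and -0.40 to -0.06 (Engrailed). Also without a call, the Engrailed trend ran from -1.26 to -0.58 and the midline terms from -0.49 to -0.20 (Engrailed) and 0.16 to 0.50 (FGF8-17-18). With the other section groups the difference in ratio of FGF8-17-18 to Engrailed was 0.034 along the arm (-0.55 to 0.035 without each section) and 0.32 on the oral-aboral axis (-0.36 to 0.13). For Pax2-5-8 across the width it was -1.26 over Engrailed (-1.11 to -0.75) and -1.50 over FGF8-17-18 (-1.42 to -1.04). With total-count scaling the mean distances of Pax2-5-8 were 4.72 and 2.62 sections, still the highest of the 3 genes on both axes.

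Counts of loci called that moved by over 1.5 times were 6242 in place of 10259 (oral-aboral inner term) and 3236 in place of 8816 (oral-aboral curve) without both ends. For the oral-aboral slope the 1717 loci became 2879 with total-count scaling, 639 without both ends and 627 to 2005 without each section. For the left-right slope the 177 loci became 284 with total-count scaling, 52 with limma-trend and 72 with section groups. No paired analysis was possible because the section numbers that the axes share mark no common source and the axes were fitted apart. Engrailed had 315 counts over 22 sections along the arm, and the intervals of sections 21 and 22 rest on 3 and 2 counts.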

Other observations

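Summed over the sections of an axis and divided by the total counts of that axis, Engrailed made up 11.8 CPM of the oral-aboral series (interval 10.8 to 12.9) and 36.3 CPM of the proximo-distal series (32.4 to 40.5), both from specimen 1, and 37.1 CPM of the left-right series (34.3 to 40.1) from specimen 2. FGF8-17-18 made up 34.9 CPM (33.2 to 36.8), 72.5 CPM (66.9 to 78.4) and 43.5 CPM (40.5 to 46.7) of the same series. Pax2-5-8 made up 86.3 CPM (83.6 to 89.2), 76.6 CPM (70.9 to 82.7) and 88.4 CPM (84.1 to 93.0). The series were deposited at different depths and were not scaled together, the intervals cover counting error only, and the differences between series were not tested.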
